A study of Mus musculus with 28 samples.

Results

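Crush of the optic nerve was compared with no crush in the retinas of mice that received vehicle, the carrier without drug. The nerve of the right eye was crushed (ONC) and the nerve of the left eye was left intact (CTRL), so each mouse supplied both retinas and the side of the head cannot be told apart from the injury. Vehicle was given by daily intraperitoneal injection, and retinas were collected 7 days after the crush. The 12 libraries, chosen by their labels, were 6 ONC and 6 CTRL retinas of the same 6 mice, females A and C and males A, B, C and D, of 28 labelled samples in all, and 15759 of the 35999 genes in the table, those with a mean of at least 10, were tested. Another 7 mice with both eyes received RGFP966 at 10 mg/kg, a blocker of the histone deacetylase HDAC3, under the same scheme and enter only at the end. Eyes were paired by the sex and letter in their titles. A pair of columns in the table carry the same name, that of the CTRL eye of vehicle female B, so this mouse was not used here. The labels give neither strain nor age.

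Retinal ganglion cells are the neurons whose axons form the optic nerve, and they are a small minority of the cells of the retina. A crush cuts these axons behind the eye without opening the retina, and in mice many of the injured cells die over the following weeks. Injured ganglion cells are known for a stress response run by the kinase DLK, Müller glia and astrocytes for a reaction marked by glial filaments and STAT3 signalling, and microglia for becoming activated and clearing debris. Values below are from whole retina, in which fewer cells of a type and less RNA per cell cannot be told apart.

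Levels are DESeq2-normalized counts, which sum to 17700000 to 18900000 in ONC and 18700000 to 21900000 in CTRL libraries, and between 19160 and 20195 genes per library were above 0. The total was lower in the ONC than in the CTRL library of every mouse. Sums below that were lower in every mouse are read beside this. Defining markers of retina were present in every library, with Pde6b, a rod phosphodiesterase subunit, at 45800 to 72000 and Trpm1, the bipolar cell channel, at 2230 to 6220. Markers of other tissues were low or uneven. Cd3e, of T cells, did not exceed 11.3, and Mog, of oligodendrocytes, did not exceed 11.6. Summed crystallins, the lens proteins, reached 14900 in CTRL female A against 615 to 2130 in the other 11 libraries. CTRL male D stood apart on the third principal component and had the highest summed rod genes. Changes are given as log2 change, ONC minus CTRL within the mouse, of log2(normalized count + 1), with the standard error (SE) from a limma model that holds the mouse as a block. A gene was called where its Benjamini-Hochberg adjusted p over 15759 tested genes was under 0.05.

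Of the 15759 genes, 637 were called (4.04%). More of them were higher than lower after crush, 503 (3.19%) against 134 (0.85%). At least 2-fold changes were called for 260 rises (1.65%) and 36 falls (0.228%). The median log2 change was 1.02 over the called rises, -0.62 over the called falls and -0.011 over all tested genes. Called rises began at low levels more often than other genes: 31.8% had a CTRL mean under 50, against 2.99% of called falls and 19.2% of all genes tested. The filter was set on the mean over ONC and CTRL libraries together. A rise could pass it from a very low CTRL level through its ONC values, whereas a fall needed the higher CTRL level. This contrast in CTRL level therefore follows in part from the filter and the direction of change. In 478 of the 503 rises and 120 of the 134 falls all 6 mice moved in the same direction, against 6.29% of all genes for 6 rises and 4.93% for 6 falls. ONC and CTRL values did not overlap in 328 of the 503 rises and 64 of the 134 falls. Over all tested genes, every ONC value lay above every CTRL value in 2.42% and below in 0.914%. The calls rest on these same values, so agreement of mice and lack of overlap among called genes follow in part from the call. The gene lists described below hold 226 of the called genes, 194 rises and 32 falls, and 411 called genes are in none of them.

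**Figure D1:**
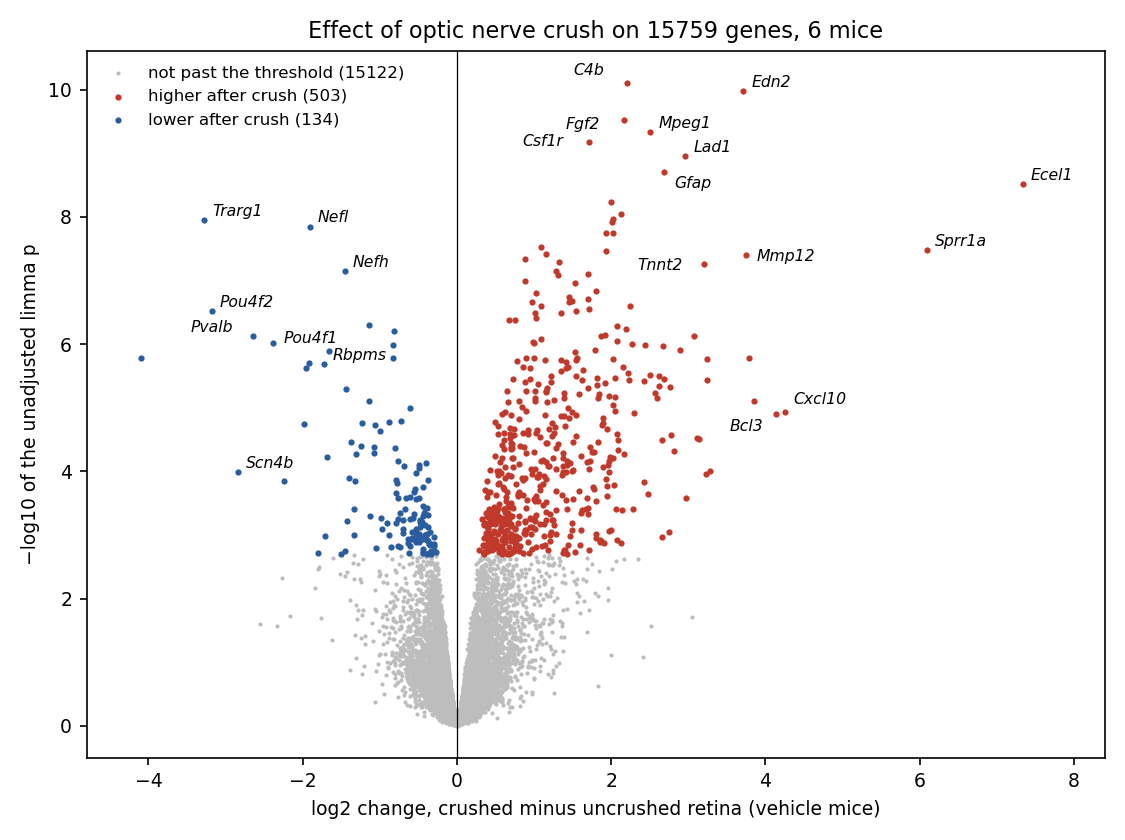
Each point is 1 of 15759 genes, with its log2 change (ONC minus CTRL, vehicle mice) across and −log10 of the unadjusted limma p upward. The 503 called rises (red) outnumber the 134 called falls (blue), and Ecel1 and Sprr1a lie farthest to the right.

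The balance of rises and falls depended on the scaling. Rises were 79.0% of the calls with the deposited scaling. When every library was brought to the same total, the median of all genes moved by 0.115 on the log2 scale, and 91.9% of 815 calls were rises. Without female A there were 400 calls, without female C 379 and without male B 390. The falls depended most on single mice: 134 were called over all 6 mice, 244 without male D, 78 without female A, 57 without female C and 56 without male B.

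Calls were also read in a mouse left out of the model. Genes called higher in 5 mice were higher in the mouse left out in 85.6% (male D) to 97.2% (female A) of cases, with a median log2 ratio of 0.81 to 1.29 in that mouse. Genes called lower in 5 mice were lower in the mouse left out in 96.5% for female C and 96.4% for male B, but in 69.9% for male C and 60.2% for male D. Over all genes the share higher in a mouse was 47.3 to 51.8%.

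Among genes with a mean of at least 50 and the same sign in all 6 mice, the 15 largest rises include genes of injured neurons, reactive glia and phagocytes. Ecel1 (chr1:87147655-87156521; positions here are gene bounds in GENCODE vM21, GRCm38), an endopeptidase-like membrane protein known as a marker of nerve injury, had 609 to 1270.5 (median 836) normalized counts in ONC retinas, against 1.31 to 26.4 (median 3.81) in CTRL retinas (log2 change 7.33 ± 0.45 (SE), adjusted p = 5.95e-06). Sprr1a (chr3:92483952-92485895), a small proline-rich protein induced in injured sensory neurons, had 53.5 to 129.6 (median 116) in ONC and was listed at 0 in 5 CTRL retinas and at 8.66 in CTRL male D (log2 change 6.09 ± 0.47 (SE), adjusted p = 2.82e-05). Both genes were near the floor in uncrushed retinas, so their fold depends on the value added before the logarithm, and in both CTRL male D was the highest of the uncrushed retinas. Without male D the log2 change was 7.91 for Ecel1 and 6.58 for Sprr1a. Edn2 (chr4:120161206-120167360), the endothelin peptide that photoreceptors release under stress, had 1311 to 2208 (median 1694) in ONC and 58.3 to 195 (median 142) in CTRL (log2 change 3.71 ± 0.17 (SE), adjusted p = 8.26e-07). Gfap (chr11:102887336-102900912), the astrocyte and reactive Müller cell filament, had 1085 to 2131 (median 1524) in ONC against 130.1 to 333 (median 263) in CTRL (log2 change 2.68 ± 0.16 (SE), adjusted p = 4.36e-06). For Edn2 and Gfap the 2 groups of 6 did not overlap.

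Others among the 15 largest rises belong to signalling, cytoskeletal and myeloid genes. Bcl3, an IκB-family partner of NF-κB, had 78.7 to 196 (median 121) in ONC and 0.371 to 29.2 (median 6.44) in CTRL (log2 change 4.13 ± 0.57 (SE), adjusted p = 0.00133). Mmp12, the macrophage elastase, had 68.4 to 201 (median 109) in ONC and 1.45 to 16.6 (median 8.28) in CTRL (log2 change 3.75 ± 0.29 (SE), adjusted p = 2.92e-05). Clec7a (dectin-1, log2 change 3.24), Mpeg1 (perforin-2, 2.5), Trem2 (2.43) and Fcrls (2.42) are expressed by microglia and macrophages. Nlrc5, the transactivator of MHC class I genes, rose by 3.07 and Trim30a, an interferon-inducible TRIM protein, by 2.5. Tnnt2, the troponin T of heart muscle, had 191 to 443 (median 276) in ONC and 19.1 to 45.8 (median 32.4) in CTRL (log2 change 3.20 ± 0.26 (SE), adjusted p = 3.6e-05). Lad1, an anchoring filament protein (2.96), and Flnc, the muscle filamin (2.56), complete the 15.

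By the same rule the 15 largest falls were led by Trarg1, Pvalb and Pou4f1 and held several ganglion cell genes. Trarg1 (chr11:76679808-76698664), a trafficking regulator of the glucose transporter GLUT4, had 8.66 to 22.4 (median 17.4) in ONC, against 98.4 to 350.4 (median 129) in CTRL (log2 change -3.28 ± 0.23 (SE), adjusted p = 1.46e-05). Pvalb (chr15:78191114-78206400), the calcium buffer parvalbumin, had 5.33 to 24.9 (median 14.6) in ONC and 60.7 to 136 (median 83.2) in CTRL (log2 change -2.65 ± 0.27 (SE), adjusted p = 0.000216). Pou4f1 (BRN3A; chr14:104461676-104467999), a transcription factor of most ganglion cells, had 26.5 to 57.4 (median 42.7) in ONC and 125 to 485 (median 169) in CTRL (log2 change -2.38 ± 0.25 (SE), adjusted p = 0.00025). In each of the 3 genes every ONC retina lay below every CTRL retina. The uncrushed level of Pou4f1 was uneven: CTRL males A and B had 383 and 485, the other 4 CTRL retinas 125 to 191. The same 2 CTRL retinas were highest for Trarg1 (279 and 350, against 98.4 to 141 in the other CTRL retinas), Scn4b (117 and 184, against 15.4 to 41.8), Nell2 (377 and 531, against 176 to 192) and Chrna6 (843 and 1030, against 247 to 436), and also for Gad1, a gene of GABAergic amacrine cells (1770 and 2790, against 714 to 1170). With 1 mouse left out at a time the log2 change of Pou4f1 was -2.61 to -2.20 and that of Trarg1 -3.45 to -3.13. The part of this unevenness in the falls of ganglion cell genes was not otherwise tested.

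Further down the 15 largest falls were Rbpms2 (-1.96) and Rbpms (-1.73), RNA-binding proteins that mark ganglion cells, Nrn1 (neuritin, -1.92), the neurofilaments Nefl (-1.91) and Nefh (-1.45), Nell2 (-1.66) and Sncg (γ-synuclein, -1.44). Htr1b, a serotonin receptor, fell by 1.34, Tmem163, a zinc transporter, by 1.40, Coro6, a coronin, by 1.37, and Dpp10, a subunit of A-type potassium channels, by 1.32. Fras1, a basement membrane protein, had 44.4 to 83.5 (median 56.7) in ONC and 112 to 686 (median 162) in CTRL (log2 change -1.69 ± 0.27 (SE), adjusted p = 0.00416). Its highest CTRL value, 686, was in female A, the retina with the high crystallins, and the other 5 were 112 to 183. Without female A the log2 change of Fras1 was -1.36. The call of Htr1b was lost under 2 of 18 alternative settings, and its highest adjusted p was 0.0579. Irx4, an Iroquois homeobox factor, had the largest fall of all, but its mean of 29.6 was under the 50 set for naming and it is named after its values were seen (log2 change -4.10 ± 0.46 (SE), adjusted p = 0.000353).

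**Figure D2:**
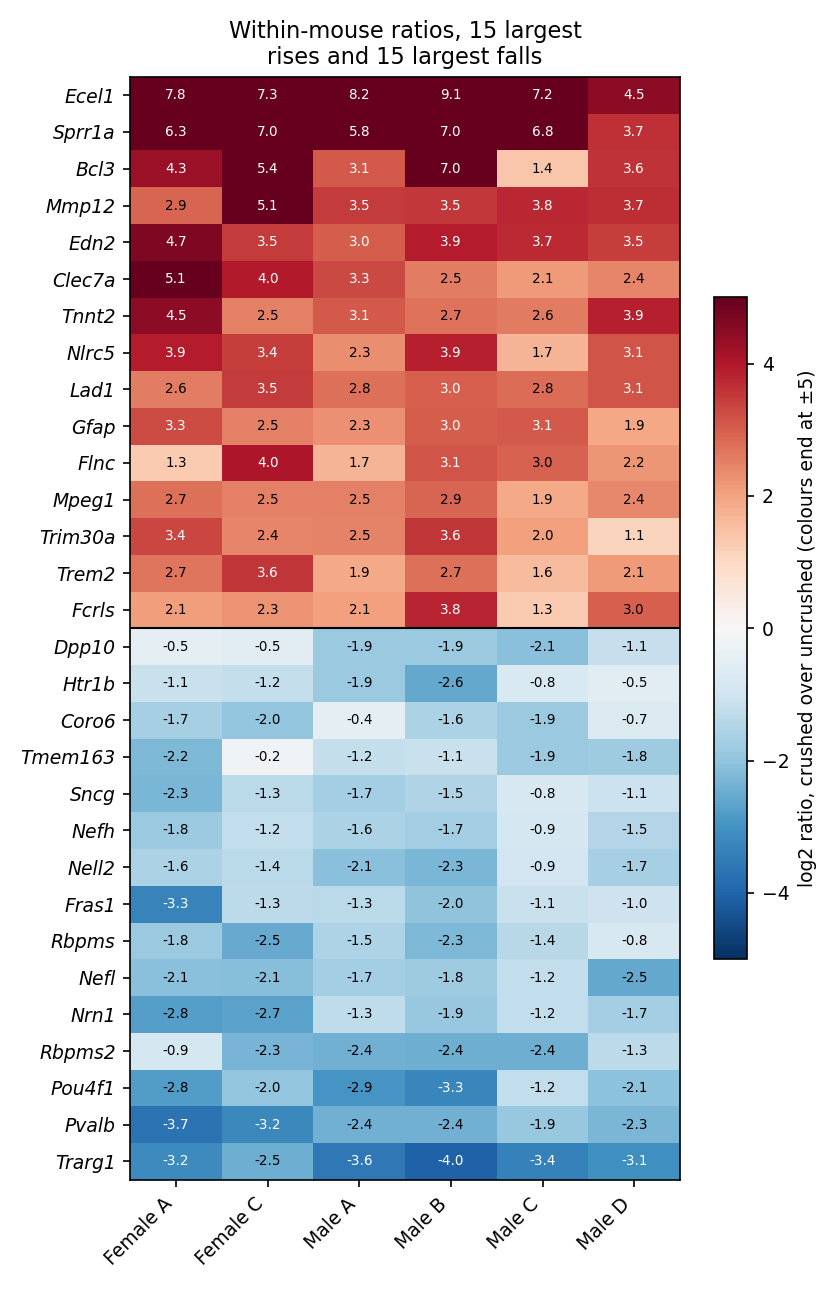
Cells give the log2 ratio of ONC over CTRL within each of 6 vehicle mice for the 15 largest rises and 15 largest falls, with the colour scale ending at ±5. The rule for choosing the genes fixed the sign in every mouse, and male D has the smallest ratios of Ecel1 and Sprr1a.

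Ganglion cell identity was read from transcription factors, general markers and subtype markers. Of 20 tested transcription factors 3 fell and 0 rose, with a list median of -0.09. The falls were Pou4f1, Pou4f2 and Isl2. Pou4f2 (BRN3B), which acts early in ganglion cell differentiation, had 5.2 to 11.3 (median 7.45) normalized counts in ONC, against 57.1 to 129 (median 62.9) in CTRL (log2 change -3.18 ± 0.30 (SE), adjusted p = 0.000115), which is 11% of the uncrushed level. Isl2 had 5.36 to 25.9 (median 10.8) in ONC and 29.4 to 83.3 (median 46.5) in CTRL (log2 change -1.98 ± 0.28 (SE), adjusted p = 0.00172). In all 3 the crushed and uncrushed retinas did not overlap. Among the factors not called were Isl1 (0.08 ± 0.17), Eomes of the melanopsin cells (0.16 ± 0.27) and Tbr1 (-0.04 ± 0.36).

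Among 18 general ganglion cell markers 10 fell and 1 rose (list median -0.71, from -1.30 to -0.34 in single mice). Rbpms had 93.8 to 154 (median 129) in ONC, against 260.5 to 539 (median 441) in CTRL (log2 change -1.73 ± 0.20 (SE), adjusted p = 0.000394), or 30.2% of the uncrushed level. The other falls were not of one size. Ctxn3 fell to 21.2% of the CTRL level, Rbpms2 to 25.7%, Nrn1 to 26.4%, Nell2 to 31.7% and Sncg to 36.9%. The nicotinic receptor subunits Chrna6 (-0.98 ± 0.21) and Chrnb3 (-0.74 ± 0.15) fell less, and so did the surface protein Thy1 (-0.69 ± 0.12). The calls of Chrna6 and Chrnb3 were lost under 7 of 18 and 6 of 18 alternatives.

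Not called among these markers were Slc17a6, the vesicular glutamate transporter (-0.59 ± 0.20), Tppp3 (-0.31 ± 0.11), Stmn2 (-0.00 ± 0.14) and Jam2 (-0.13 ± 0.07). Adcyap1, which encodes the neuropeptide PACAP, went the other way. It had 70.6 to 140.3 (median 101) in ONC, against 7.79 to 41.7 (median 26.3) in CTRL, without overlap (log2 change 2.09 ± 0.33 (SE), adjusted p = 0.00337). The summed level of the 18 markers was 5720 to 6670 (median 6310) in ONC and 7110 to 11600 (median 8390) in CTRL retinas and was lower after crush in 6 of 6 mice.

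Markers of ganglion cell subtypes moved in both directions. Of 21 tested, 3 rose and 1 fell, with a median of 0.05. Spp1 (osteopontin), which marks alpha ganglion cells and is also made by microglia, had 258 to 322 (median 274) in ONC and 56.8 to 168 (median 96.5) in CTRL (log2 change 1.44 ± 0.19 (SE), adjusted p = 0.00114). Kcng4, another alpha cell marker, rose by 0.60 and Serpine2 by 0.62; the call of Kcng4 was lost under 10 of 18 alternatives. Pvalb was the fall. Opn4, the photopigment of intrinsically photosensitive ganglion cells, was not called (-0.60 ± 0.41), and neither were Cartpt (0.06 ± 0.14), of direction-selective cells, and Foxp2 (-0.14 ± 0.31).

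The axonal cytoskeleton changed in its neurofilaments. Of 30 tested genes of the axon's cytoskeleton and transport 4 fell and 1 rose. Nefl, the light neurofilament chain, had 1248 to 2348 (median 1664) in ONC, against 4736 to 8067 (median 6405) in CTRL (log2 change -1.91 ± 0.14 (SE), adjusted p = 1.59e-05). Nefh, the heavy chain, fell by 1.45 ± 0.12 and Nefm, the medium chain, by 0.79 (adjusted p = 0.00747). Kif5a, a kinesin motor of axons, fell by 0.41 (adjusted p = 0.019). Ina, the α-internexin that joins these filaments, was not called (-0.5 ± 0.14). Tubb2b, a β-tubulin of growing neurons, rose (log2 change 0.95 ± 0.11 (SE), adjusted p = 0.000425), while Tubb3 (-0.18 ± 0.10), Tuba1a (0.07 ± 0.09) and Mapt (0.01 ± 0.11), which other retinal neurons share, were not called.

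Excitability and synapse genes gave 1 or 2 calls per list, all falls, read here against the 0.85% of all tested genes called lower. Of 15 sodium channel genes 2 fell. Scn4b, an accessory β subunit, had 3.12 to 18.2 (median 4.35) in ONC and 15.4 to 184 (median 38) in CTRL (log2 change -2.84 ± 0.49 (SE), adjusted p = 0.00594), and Fgf12, a channel-binding protein, fell by 0.69, a call lost under 9 of 18 alternatives. Of 26 potassium and HCN channel genes, only Kcnip4 was called (log2 change -0.69 ± 0.15 (SE), adjusted p = 0.022), a call lost under 6 of 18 alternatives. That share is near the 4.04% of all tested genes called in either direction and above the 0.85% called lower, but it rests on 1 gene. The summed level of these channels was 49300 to 67700 (median 60700) in ONC and 61300 to 85800 (median 68700) in CTRL, lower after crush in 6 of 6 mice. So was the total of all genes, and the list median, -0.02, was 0.1 with the same total per library. Of 28 genes of transmitter release, only Cplx1, a complexin, was called, with 197 to 459 (median 309.9) in ONC and 466 to 1162 (median 547) in CTRL (log2 change -1.14 ± 0.15 (SE), adjusted p = 0.000921). Of 33 receptor genes the 2 called were Chrna6 and Chrnb3, and no AMPA, NMDA, GABA or glycine receptor subunit of the list was called.

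**Figure D3:**
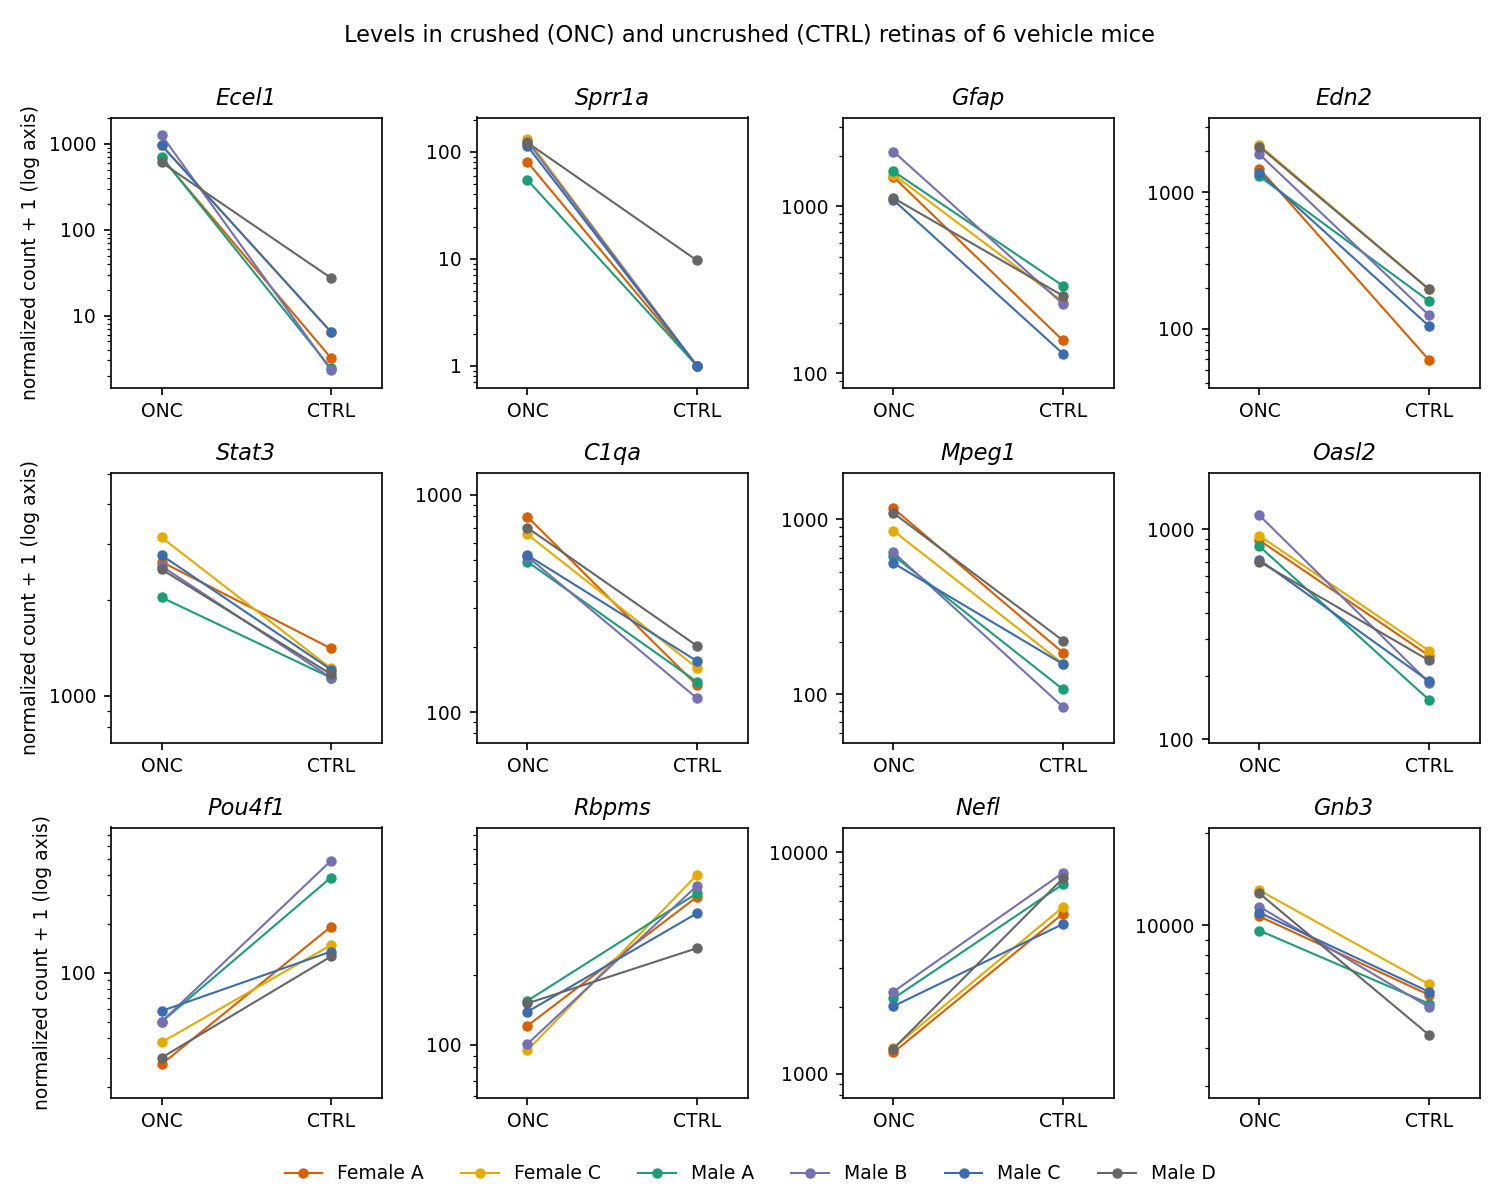
Normalized counts plus 1, on log axes, of 12 genes in the ONC and CTRL retina of each of 6 vehicle mice, with 1 line per mouse. In each of the 12 genes the lines run in 1 direction with no overlap between eyes, and CTRL male D has the highest Ecel1 and Sprr1a among CTRL retinas.

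The DLK to JNK pathway carries the signal of axon damage to the nucleus, where it raises transcription factors such as ATF3 and SOX11. Of 27 tested genes of this list 5 rose and 0 fell. Sox11 had 96.6 to 210.3 (median 155) in ONC, against 21.5 to 44 (median 27.6) in CTRL (log2 change 2.27 ± 0.24 (SE), adjusted p = 0.000257). Atf3 had 201 to 386 (median 298) in ONC and 102 to 207 (median 123) in CTRL (log2 change 1.15 ± 0.18 (SE), adjusted p = 0.00281), with 1 CTRL value, 207 in male D, above the lowest ONC value. Junb rose by 1.0, Fosb by 1.16 and Egr1 by 0.59. The kinases themselves were not called, as with Map3k12 (DLK, 0.06 ± 0.09), Map3k13 (LZK, -0.00 ± 0.09) and Mapk8 (JNK1, -0.09 ± 0.07), and neither were Jun (0.23 ± 0.09) and Ddit3 (CHOP, 0.07 ± 0.09).

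Regeneration-associated genes, known from neurons that regrow axons, gave 12 rises and 0 falls among 29 tested, with a median of 0.65. Beside Ecel1 and Sprr1a, the rises were Sox11, Adcyap1, Gal (galanin, 2.0), Gadd45b (1.93), Socs3 (1.37), Atf3, Stat3, Stmn4 (0.85), Tnfrsf12a (0.85) and Plat (0.65). Gap43, a growth cone protein, was not called (0.58 ± 0.16; adjusted p = 0.0757), and Basp1 (0.03 ± 0.08), Npy (0.02 ± 0.19) and Arg1 (0.05 ± 0.39) lay near 0. The summed level of the list was 9610 to 12100 (median 10400) in ONC and 6150 to 7150 (median 6720) in CTRL retinas, without overlap.

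The promoter of Sprr1a is shown because it is the called regeneration-associated gene whose start region holds matches to the AP-1 motif TGANTCA, the element bound by dimers of the JUN, FOS and ATF families. The sequence is RefSeq's, build GRCm38.p6, minus strand, chr3:92485832-92486131, from 250 bases before to 50 after the annotated start, with the 2 matches in capitals. The matches begin 146 and 116 bases before the start.
Sprr1a: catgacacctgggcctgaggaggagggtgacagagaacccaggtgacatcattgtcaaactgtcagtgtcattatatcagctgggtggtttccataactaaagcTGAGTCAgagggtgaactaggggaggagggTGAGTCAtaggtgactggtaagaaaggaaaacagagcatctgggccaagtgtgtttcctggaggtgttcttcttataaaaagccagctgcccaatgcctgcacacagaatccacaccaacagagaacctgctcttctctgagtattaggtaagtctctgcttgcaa
A match on either strand was present in 4.96% of the 9494 promoters of tested genes, in 10.8% of the 314 promoters of called rises and in 5.71% of the 70 promoters of called falls. Among the 20 regeneration-associated promoters in the table it was present in 5.0%, which is Sprr1a alone. The cyclic AMP response element TGACGTCA was present in 3.07% of all promoters, 1.27% of rises and 1.43% of falls.

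Other stress pathways gave a few rises each, read here against the 3.19% of all tested genes called higher. Of 24 targets of ATF4, the factor of the integrated stress response, 4 rose. Chac1, a glutathione-degrading enzyme, had 38.5 to 77.6 (median 43) in ONC and 5.47 to 33 (median 16.6) in CTRL (log2 change 1.5 ± 0.29 (SE), adjusted p = 0.0127), Nupr1 rose by 1.0, Atf5 by 0.40 and the amino acid transporter Slc7a5 by 0.32. The call of Slc7a5 was lost under 9 of 18 alternatives. None of 16 chaperones and sensors of the unfolded protein response was called by limma, and 2 had an unadjusted p under 0.05; the log2 change of Hspa5 (BiP) was -0.00 ± 0.08.

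Of 25 p53 target and cell death genes 3 rose. Tnfrsf1a, the TNF receptor, had 213 to 328 (median 275) in ONC and 73.5 to 161 (median 131) in CTRL (log2 change 1.20 ± 0.17 (SE), adjusted p = 0.00197). Cdkn1a (p21) rose by 1.21 and Hrk, a BH3-only death protein known from neurons deprived of trophic support, by 1.61. Hrk rose in 5 of 6 mice, with 64.0 in CTRL male C against 10.4 to 19.6 in the other CTRL retinas, and its call was lost under 5 of 17 alternatives. The death genes Bbc3 (PUMA, 0.84 ± 0.27) and Bax (-0.01 ± 0.09) were not called. Of 14 heat shock and metallothionein genes, Mt2 (1.09), Mt1 (0.78), Bag3 (0.90) and Hmox1 (0.87) rose, and Hspa1a was not called (-0.12 ± 0.08).

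Glial reaction was broad in the filaments and acute-phase proteins. Of 19 tested genes 9 rose and 0 fell (median 0.73). Gfap was 6.42-fold higher after crush. C4b, a complement component of reactive glia, had 1126 to 1504 (median 1339.96) in ONC, against 197 to 344 (median 287) in CTRL (log2 change 2.21 ± 0.10 (SE), adjusted p = 8.26e-07), the smallest p of all tested genes. Vim, the vimentin filament of Müller cells, had 3465 to 4766 (median 3749) in ONC and 2024 to 2811 (median 2314) in CTRL (log2 change 0.73 ± 0.09 (SE), adjusted p = 0.000555). Others were A2m (1.5), S100a6 (1.37), Cd44 (1.15), Cp (ceruloplasmin, 0.68), S100a10 (0.67) and Nes (nestin, 0.63).

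Serpina3n and Lcn2, common markers of reactive astrocytes, were not called. Serpina3n had 264 to 861 (median 540.4) in ONC and 84.8 to 923 (median 117) in CTRL (log2 change 1.49 ± 0.41, adjusted p = 0.0756), with 923 in CTRL male A and 407 in CTRL male C against 84.8 to 120 in the other 4 CTRL retinas. Lcn2 had 81.3 to 264 (median 135) in ONC and 63.1 to 148 (median 107) in CTRL, which overlapped (0.49 ± 0.23, adjusted p = 0.342).

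Panels that name reactive astrocyte states gave rises in each and no falls. Called were 7 of 12 in the pan-reactive panel, 6 of 12 in the neuroinflammatory panel and 3 of 10 in the ischaemia-type panel. The pan-reactive calls were Gfap, Vim, Cd44, Osmr, Cp, Cxcl10 and S1pr3. The neuroinflammatory calls were Gbp2, H2-D1, H2-T23, Psmb8, Serping1 and C3, most of which are also interferon or MHC class I genes and are not particular to astrocytes. C3, the central complement protein, had 44.4 to 144 (median 75.5) in ONC and 14.8 to 69.9 (median 18.6) in CTRL (log2 change 1.70 ± 0.35 (SE), adjusted p = 0.0192), with 69.9 in CTRL male D, and its call was lost under 6 of 18 alternatives. The ischaemia-type calls were Stat3, S100a10 and Cd14. Of 10 astrocyte identity genes 4 rose, Pdgfra (0.80), Igfbp2 (0.67), Agt (0.63) and Aldh1l1 (0.60). The calls were lost under 10 of 18 alternatives for Igfbp2, 7 of 18 for Aldh1l1 and 6 of 18 for Pdgfra. Pax2, the defining factor of retinal astrocytes, was not called (0.21 ± 0.23).

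Cytokines of the LIF and CNTF family act through the receptor gp130 and the kinases JAK to phosphorylate STAT3, a pathway known to drive gliosis and photoreceptor protection in the retina. From ligand to target, 11 of 23 tested genes rose and 0 fell. The ligands Lif (log2 change 1.81 ± 0.42 (SE), adjusted p = 0.0341) and Cntf (0.78) rose. So did the receptor chains Il6ra (1.38), Osmr (1.26) and Il6st, which is gp130 itself (0.59). The kinase Jak3 had 211 to 345 (median 297) in ONC and 68 to 120.3 (median 85.1) in CTRL (log2 change 1.71 ± 0.16 (SE), adjusted p = 0.000111), whereas Jak1 (-0.06 ± 0.10) and Jak2 (-0.11 ± 0.09) were not called.

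Stat3 had 2037 to 3153 (median 2602) in ONC, against 1137 to 1413 (median 1187) in CTRL, without overlap (log2 change 1.09 ± 0.08 (SE), adjusted p = 2.75e-05). Its targets Socs3, the feedback inhibitor (log2 change 1.37 ± 0.24 (SE), adjusted p = 0.0065), Cebpd (log2 change 1.70 ± 0.14 (SE), adjusted p = 4.52e-05), Junb (1.0) and Bcl3 (4.13) rose. Lifr (0.11 ± 0.07), Cntfr (0.25 ± 0.13) and Socs2 (-0.13 ± 0.19) were not called.

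The Socs3 promoter is shown because it holds the form TTCNNNGAA, the gamma-activated site bound by STAT dimers. It is RefSeq's sequence, GRCm38.p6, minus strand, chr11:117969317-117969616, with the match in capitals, beginning 154 bases before the start.
Socs3: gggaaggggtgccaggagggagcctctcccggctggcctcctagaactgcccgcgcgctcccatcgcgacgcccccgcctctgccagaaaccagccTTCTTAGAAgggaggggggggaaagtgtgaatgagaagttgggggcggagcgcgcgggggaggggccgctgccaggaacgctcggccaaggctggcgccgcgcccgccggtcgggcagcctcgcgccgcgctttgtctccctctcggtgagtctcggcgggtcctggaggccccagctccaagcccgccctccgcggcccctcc
The form was present in 6.9% of the 9494 promoters of tested genes, in 11.5% of those of called rises and in 4.29% of those of called falls. It was present in 12.5% of 16 promoters of the gp130 list, in 22.7% of 22 of the interferon-stimulated list and in 6 of 8 of the interferon-induced GTPases.

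Endothelin and fibroblast growth factor genes rose at a few points. Of 20 tested 3 rose and 0 fell. Edn2 is described above; its receptor Ednrb on Müller cells was not called (0.57 ± 0.20). Fgf2, a survival factor of photoreceptors and Müller cells, had 2171 to 4039 (median 2979) in ONC, against 571 to 741 (median 645) in CTRL, without overlap (log2 change 2.16 ± 0.11 (SE), adjusted p = 1.58e-06). Fgfr1 rose by 0.61 (adjusted p = 0.00221), and the FGF feedback targets Spry2 (-0.24 ± 0.08) and Dusp6 (0.37 ± 0.14) were not called.

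Of 24 genes of the resting Müller cell 10 rose and 1 fell. Clu (clusterin) had 12201 to 18660.3 (median 15487) in ONC and 5232 to 8703 (median 6733) in CTRL (log2 change 1.15 ± 0.09 (SE), adjusted p = 2.92e-05). Cd9 (1.02), Apoe (0.86), Crym (0.81), the glutamate transporter Slc1a3 (0.53), Sox9 (0.52), the potassium channel Kcnj10 (0.49), Rdh10 (0.46), Dkk3 (0.46) and Gpr37 (0.40) rose. Glul, glutamine synthetase, fell, with 26642 to 40229.9 (median 33421) in ONC and 40314 to 50031 (median 45518) in CTRL (log2 change -0.44 ± 0.11 (SE), adjusted p = 0.044), a call lost under 8 of 18 alternatives. Aqp4 (0.35 ± 0.09) and Rlbp1 (-0.20 ± 0.10) were not called.

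Microglial genes gave the highest share of calls among the gene lists. Of 21 homeostatic microglia genes 19 rose and 0 fell, the list median was 1.49 (1.18 to 1.96 in single mice), and in 17 members the crushed retinas lay above all uncrushed ones. Csf1r, the receptor that microglia need to survive, had 887 to 2075 (median 1443) in ONC, against 289.8 to 696 (median 424) in CTRL (log2 change 1.72 ± 0.09 (SE), adjusted p = 2.09e-06). Ctss, a lysosomal protease, had 990.3 to 1973 (median 1315) in ONC and 254 to 482 (median 331) in CTRL (log2 change 2.01 ± 0.14 (SE), adjusted p = 1.46e-05), and Laptm5, a lysosomal membrane protein, rose by 1.80. Summed, the list was at 6590 to 11700 (median 8030) in ONC and 2430 to 3900 (median 3080) in CTRL retinas, higher after crush in 6 of 6 mice.

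Rises within the list ran from small to large. P2ry12, the purinergic receptor of resting microglia, rose by 0.81 and the phagocytic receptor Mertk by 0.63, while Tmem119 (0.77 ± 0.21) and P2ry13 (1.18 ± 0.30) were not called. Cx3cr1 rose by 1.46, Itgam by 1.70, Irf8 by 1.84 and Tyrobp by 1.92, and Trem2 and Fcrls rose most. Aif1 (IBA1) had 30 to 91.8 (median 44.5) in ONC and 4.07 to 21.9 (median 20.4) in CTRL (log2 change 1.49 ± 0.33 (SE), adjusted p = 0.0284); CTRL male A was the lowest, and the call was lost under 6 of 17 alternatives.

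Genes of the disease-associated microglia state gave 13 rises and 0 falls among 23. Cst7, a cystatin, had 19.9 to 54.1 (median 30.5) in ONC and 0 to 3.26 (median 1.39) in CTRL (log2 change 3.79 ± 0.42 (SE), adjusted p = 0.000353). With CTRL values near the floor, Cst7 passed the filter only through its ONC values. Its log2 change ran from 2.49 to 4.19 over the alternative settings. Itgax (CD11c, 3.85), Clec7a (3.24), Ccl6 (2.62) and the receptor kinase Axl (1.32 ± 0.11) rose, and Lpl (0.55 ± 0.14), Gpnmb (0.55 ± 0.54), Igf1 (0.29 ± 0.18) and Lgals3 (0.67 ± 0.31) were not called. Of 23 Fc receptor and leukocyte surface genes 17 rose, with a median of 1.81. Fcgr2b had 67.8 to 155 (median 80.5) in ONC and 13.7 to 31.1 (median 19) in CTRL (log2 change 2.15 ± 0.25 (SE), adjusted p = 0.000421), Cd52 rose by 2.67 and Cd53 by 1.81. These surface genes are shared by microglia and infiltrating leukocytes.

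Markers particular to other leukocytes were few. Of 19 listed, 6 reached a mean of 10 and none was called by limma (none at an unadjusted p under 0.05). The log2 change of Ccr2, of monocytes, was 0.63 ± 0.39 and that of Mrc1, of perivascular macrophages, 0.59 ± 0.71. S100a8, of neutrophils, was listed at 0 in 7 libraries and reached 89.0 in ONC female A. The summed level of the list was 116 to 506 (median 213) in ONC and 135 to 239 (median 166) in CTRL retinas. None of 7 tested proliferation genes was called or had an unadjusted p under 0.05, and Mki67, Cdk1 and Ccnb1 were under the filter.

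Complement, the system of tags that marks synapses and debris for phagocytes, gave rises from its initiator to its receptors. Of 14 tested genes 9 rose and 0 fell. The 3 chains of the initiator C1q rose together: C1qa had 491 to 790.2 (median 591) in ONC and 115 to 201 (median 148) in CTRL (log2 change 2.0 ± 0.13 (SE), adjusted p = 1.03e-05), C1qb rose by 2.13 and C1qc by 2.02. C1ra (1.93), C4b and C3 rose in the cascade, the receptors C5ar1 (2.74) and C3ar1 (1.71) rose, and so did the C1 inhibitor Serping1 (1.64). C2 (-0.16 ± 0.18), Cfb (0.06 ± 0.14) and the membrane inhibitor Cd59a (-0.08 ± 0.09) were not called.

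Chemokines and cytokines were mostly low: of 25 listed, 15 passed the filter and 7 rose. Cxcl10 and Ccl5, with CTRL values of at most 3.31 and 6.19, passed the filter only through their ONC values. Such members could be called only as rises, so the count of rises follows in part from the filter. Cxcl10, an interferon-induced chemokine, had 13.2 to 80.9 (median 17.9) in ONC and was listed at 0 in 5 CTRL retinas and at 3.31 in CTRL male D (log2 change 4.26 ± 0.58 (SE), adjusted p = 0.00126). Ccl5 (3.12), Ccl6 (2.62), Ccl12 (2.28), Csf1 (1.05), Tgfb1 (1.16) and Cxcl16 (0.45) rose. Over the alternative settings the log2 change ran from 2.41 to 5.09 for Cxcl10 and from 2.0 to 3.47 for Ccl5, both near the floor in CTRL. Il1b, Tnf, Il6 and Ccl2 were under the filter. Of 22 NF-κB and Toll-like receptor genes 8 rose: Tlr2 (log2 change 2.62 ± 0.32 (SE), adjusted p = 0.000646), Tlr9 (2.14), Cd14 (1.68), Ly86 (1.5), Tlr13 (1.11), Icam1 (0.94), Vcam1 (0.73) and Myd88 (0.63). The NF-κB subunits Nfkb1 (0.13 ± 0.13) and Rela (0.32 ± 0.12) and the inhibitor Nfkbia (-0.00 ± 0.10) were not called. Unlike the calls, the summed level of this list was higher after crush in 0 of 6 mice. It was 9420 to 11200 (median 10100) in ONC and 10300 to 14400 (median 10900) in CTRL retinas. The total of all genes was also lower after crush in every mouse.

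Interferons act through JAK kinases and factors such as STAT2 and IRF9 to raise a set of antiviral and antigen presentation genes. Of 39 tested interferon-stimulated genes 28 rose and 0 fell, with a median of 1.38 (1.02 to 1.64 in single mice), and in 24 the groups did not overlap. Oasl2, of the oligoadenylate synthetase family, had 698 to 1164 (median 854) in ONC, against 153 to 263 (median 212) in CTRL (log2 change 2.03 ± 0.14 (SE), adjusted p = 1.46e-05). Lgals3bp had 583 to 799 (median 631) in ONC and 106 to 285 (median 190.3) in CTRL (log2 change 1.86 ± 0.19 (SE), adjusted p = 0.000216). Ifit3, which binds viral RNA complexes, rose by 1.79 ± 0.19 and Bst2 (tetherin) by 2.21 ± 0.26. Oas1a (2.78), Ifi27l2a (2.60), Rtp4 (2.05), Ddx60 (1.89), Rsad2 (viperin, 1.89), Ifit1 (1.54) and Isg15 (1.46) rose too.

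Of the transducers, Irf9 (log2 change 0.69 ± 0.10 (SE), adjusted p = 0.00251) and Irf7 (0.63) rose, and Stat2 (0.23 ± 0.11) and Irf1 (0.34 ± 0.16) were not called. Of 14 tested interferon-induced GTPases, which attack the vacuoles of pathogens, 9 rose. Gbp3 had 285 to 422 (median 338) in ONC and 48.3 to 119 (median 67.6) in CTRL (log2 change 2.19 ± 0.22 (SE), adjusted p = 0.000182), Gbp2 rose by 2.08, Gbp6 by 1.53, Irgm2 by 1.29, Irgm1 by 1.16 and Igtp by 1.12. Members of these families are near copies of each other, and kallisto divides reads that fit several transcripts, so the share of single members is uncertain.

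Promoters of Ifit3 and Bst2 are shown as the interferon-stimulated genes with the smallest p whose promoter was in the table and held GAAANNGAA, the core of the interferon-stimulated response element. Both are RefSeq's sequences of build GRCm38.p6, Ifit3 on the plus strand at chr19:34583279-34583578 and Bst2 on the minus strand at chr8:71537423-71537722. Capitals mark matches on either strand, of which the 2 in Bst2 overlap.
Ifit3: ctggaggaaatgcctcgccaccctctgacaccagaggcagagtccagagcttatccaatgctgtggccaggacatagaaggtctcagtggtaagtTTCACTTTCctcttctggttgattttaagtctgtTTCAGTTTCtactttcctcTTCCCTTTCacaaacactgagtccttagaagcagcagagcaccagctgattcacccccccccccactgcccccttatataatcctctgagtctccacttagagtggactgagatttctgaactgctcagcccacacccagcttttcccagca
Bst2: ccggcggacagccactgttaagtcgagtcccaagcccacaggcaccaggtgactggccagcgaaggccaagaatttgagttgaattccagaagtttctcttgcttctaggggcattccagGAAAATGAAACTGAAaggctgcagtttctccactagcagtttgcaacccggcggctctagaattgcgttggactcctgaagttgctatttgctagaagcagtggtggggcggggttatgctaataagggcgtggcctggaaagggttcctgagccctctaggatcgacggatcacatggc
The 3 matches in Ifit3 begin 155 to 102 bases before the start and the 2 in Bst2 begin 130 and 124 bases before it. The motif was present in 7.22% of the 9494 promoters of tested genes, in 15% of the 314 of called rises and in 7.14% of the 70 of called falls. It was present in 13 of 22 promoters of the interferon-stimulated list, in 8 of 8 of the GTPases and in 5 of 15 of the MHC class I list. The letters TATAAA were searched as a core promoter element and were present in 8.37% of all promoters, 11.5% of those of rises and 12.9% of those of falls. The promoter table held 384 of the 637 called genes.

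MHC class I molecules present peptides that the immunoproteasome cuts and the TAP transporter carries. Of 20 tested genes 12 rose and 0 fell. B2m, the shared light chain, had 1277 to 2217 (median 1554) in ONC, against 333 to 548 (median 401) in CTRL (log2 change 1.94 ± 0.14 (SE), adjusted p = 1.79e-05). The heavy chains H2-D1 (log2 change 1.31 ± 0.11 (SE), adjusted p = 4.52e-05), H2-K1 (1.21), H2-Q4 (1.54) and H2-T23 (1.54) rose, with the same uncertainty between near copies. Tap1 (1.27), Tap2 (0.76), the proteasome subunit Psmb8 (1.03) and Nlrc5 rose, whereas Tapbp (0.17 ± 0.08) and Psme2 (-0.02 ± 0.14) were not called. Of 8 MHC class II genes none was called by limma, and 3 had an unadjusted p under 0.05; the list sum was 150 to 874 (median 405) in ONC and 123 to 296 (median 193) in CTRL retinas. The log2 change of Cd74 was 1.06 ± 0.48.

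Called genes lay next to each other in 6 places, where at least 3 consecutive tested genes rose, 19 genes in all (GENCODE vM21, GRCm38). They were Gbp5, Gbp7, Gbp3 and Gbp2 on chromosome 3 between 142493978 and 142638008; Fcgr2b, Fcgr4 and Fcgr3 on chromosome 1 between 170958617 and 171064935; C1qb, C1qc and C1qa on chromosome 4 between 136880129 and 136898803. Tap1, Psmb8 and Tap2 lay on chromosome 17 between 34187553 and 34216321, and Parp14, Dtx3l and Parp9, which modify interferon-signalling proteins, on chromosome 16 between 35832874 and 35972605. The sixth place joined Agtpbp1 (log2 change 0.75 ± 0.07 (SE), adjusted p = 0.000142), an enzyme that trims glutamates from tubulin, Naa35 (0.35) and Golm1 (0.75) on chromosome 13 between 59445742 and 59675811. No run of 3 falls was found. How many such runs chance would give was not tested. The uncertainty between near copies given above holds for the Gbp run and may hold for the Fcgr run, so calls within them need not be independent. The calls of Gbp5 (7 of 18), Parp9 (6 of 18), Tap2 (5 of 18), Naa35 (6 of 18) and Golm1 (8 of 18) were lost under the numbers of alternatives given.

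**Figure D4:**
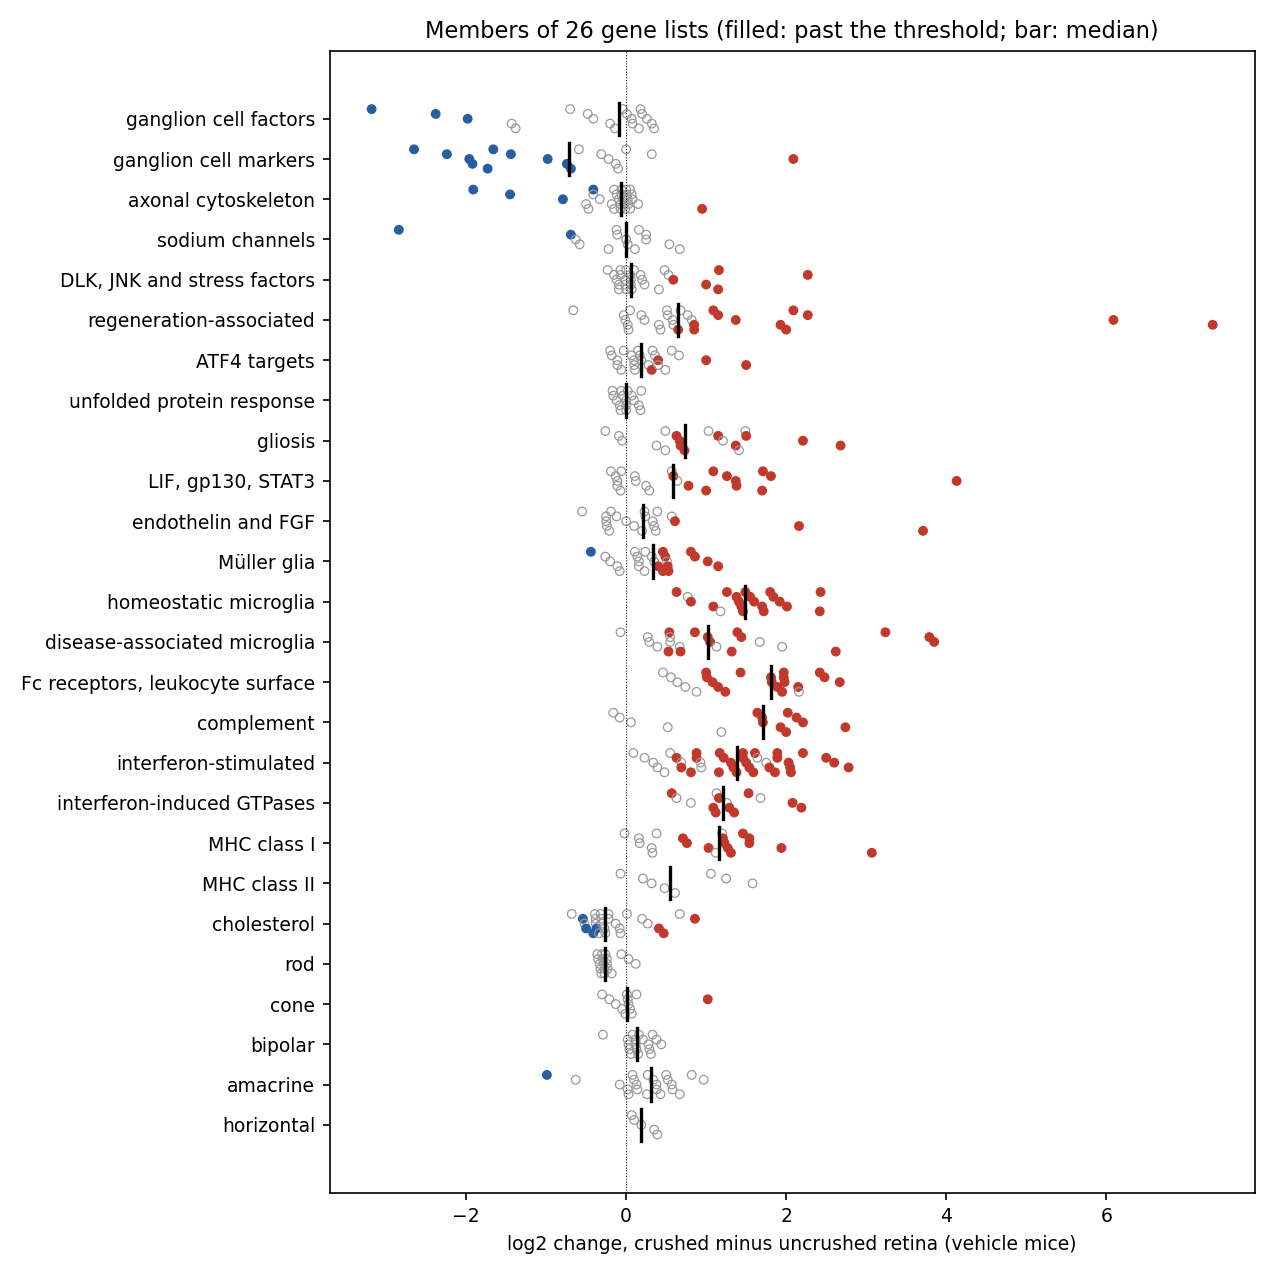
Each point is a tested member of 1 of 26 gene lists, placed by its log2 change (ONC minus CTRL, vehicle mice), filled where called, and each bar is the list median. Microglial, complement, interferon and MHC class I members lie to the right, ganglion cell markers to the left. The rod median is -0.27, the cone median 0.01 and the bipolar median 0.14.

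Retinal neurons other than ganglion cells gave 0 or 1 call per list, read here against the 4.04% of all tested genes called. Counts this small do not set these lists apart from that share. Of 18 rod genes none was called by limma, although 12 were lower in all 6 mice, 8 had every ONC value below every CTRL value, 12 had an unadjusted p under 0.05 and the median was -0.27. The summed rod level was 863000 to 1080000 (median 1020000) in ONC and 1100000 to 1540000 (median 1140000) in CTRL, lower after crush in 6 of 6 mice, with 1540000 in CTRL male D against 1100000 to 1170000 in the other CTRL retinas. The total of all genes was lower after crush in every mouse as well. With quantile normalization the rod median was 0.00 and with equal totals -0.15.

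Among 12 cone genes 1 was called. Gnb3, the cone transducin β subunit that ON bipolar cells also use, had 9619.9 to 12991 (median 11270.5) in ONC, against 4411 to 6439 (median 5759.8) in CTRL, without overlap (log2 change 1.02 ± 0.10 (SE), adjusted p = 0.000117). Its cone partner Gnat2 (-0.21 ± 0.08) and the cone opsins Opn1sw (0.03 ± 0.14) and Opn1mw (-0.01 ± 0.08) were not called. None of 18 bipolar genes was called by limma (4 at an unadjusted p under 0.05; median 0.14), nor any of 5 horizontal cell genes (1 at an unadjusted p under 0.05). Of 22 amacrine genes only Calb2 (calretinin), which ganglion cells share, was called, with 408 to 926 (median 540.04) in ONC and 718 to 2593 (median 908) in CTRL (log2 change -0.99 ± 0.15 (SE), adjusted p = 0.00211). Gad1 (0.43 ± 0.17), Slc6a9 (0.27 ± 0.09) and Chat (0.52 ± 0.19) were not called. The amacrine list median was 0.30, and 13 of the 22 genes had an unadjusted p under 0.05 (limma), a larger share than in the bipolar list.

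Cholesterol genes were called in both directions. Energy genes gave 1 or 2 calls per list, all falls, read here against the 0.85% of all tested genes called lower. Of 27 cholesterol genes 4 fell and 3 rose, 19 had an unadjusted p under 0.05 and the median was -0.27. The falls were enzymes of synthesis, Fdps (log2 change -0.54 ± 0.10 (SE), adjusted p = 0.00962), Idi1 (-0.5), Fdft1 (-0.41) and Hmgcs1 (-0.37). The rises were the carrier Apoe, with 10820.3 to 18402 (median 14945) in ONC and 6441 to 10586 (median 7666) in CTRL (log2 change 0.86 ± 0.13 (SE), adjusted p = 0.00221), the exporter Abca1 (0.41) and the kinase Pmvk (0.47), another enzyme of synthesis. The call of Abca1 was lost under 8 of 18 alternatives and that of Pmvk under 3 of 18. Of 23 nuclear genes of oxidative phosphorylation Ndufa4 fell (log2 change -0.40 ± 0.09 (SE), adjusted p = 0.0349; lost under 6 of 18 alternatives). Their summed level was 49200 to 56500 (median 54100) in ONC and 54700 to 68800 (median 59400) in CTRL, lower after crush in 6 of 6 mice. So was the total of all genes, and the list median, -0.17, was -0.06 with the same total per library. Of 13 mitochondrially encoded genes mt-Co2 (-0.48) and mt-Nd3 (-0.58) fell, 8 of the 13 were lower in all 6 mice, 12 had an unadjusted p under 0.05, and mt-Nd3 was higher in ONC in 1 mouse, female A. Their calls were lost under 10 of 18 and 8 of 18 alternatives, and the median of the mitochondrial list, -0.45, was -0.14 with quantile normalization. Their summed level was 858000 to 1490000 (median 1020000) in ONC and 1070000 to 2130000 (median 1540000) in CTRL, lower after crush in 6 of 6 mice. With the same total per library the median of the mitochondrial list was -0.33. Of 19 glycolytic genes Hk2, a hexokinase of photoreceptors, fell (log2 change -0.5 ± 0.11 (SE), adjusted p = 0.0324; lost under 6 of 18 alternatives).

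Matrix genes gave several rises and vascular genes 1 call in each list. Of 18 metalloproteinases and inhibitors 5 rose, Mmp12, Timp2 (log2 change 0.89 ± 0.11 (SE), adjusted p = 0.000724), Adamts1 (0.85), Mmp14 (0.67) and Timp3 (0.45), and Mmp9 was not called (-0.18 ± 0.26). Of 29 matrix and integrin genes Sparc (log2 change 0.89 ± 0.07 (SE), adjusted p = 3.33e-05), Spp1 and Itgb5 (0.36; lost under 5 of 18 alternatives) rose. The summed levels of both lists were higher after crush in 6 of 6 mice, 4620 to 6960 (median 5480) in ONC and 3160 to 4940 (median 3940) in CTRL for metalloproteinases and inhibitors, and 16800 to 21100 (median 18500) in ONC and 13000 to 18100 (median 16400) in CTRL for matrix genes. Of 11 muscle-type genes Tnnt2 alone was called, and Acta1 (-0.14 ± 0.32) and Des (0.09 ± 0.25) lay near 0. Kdr (log2 change 0.41 ± 0.09 (SE), adjusted p = 0.0279; lost under 10 of 18 alternatives) was the call among 13 endothelial genes and Rgs5 (log2 change 0.45 ± 0.11 (SE), adjusted p = 0.0415; lost under 9 of 18) among 10 pericyte genes, while Pecam1 (-0.09 ± 0.11) and Pdgfrb (0.18 ± 0.12) were not called.

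Markers of neighbouring tissues varied between libraries. None of 12 crystallin and lens genes, 10 pigment epithelium genes, 5 oligodendrocyte genes and 3 corneal or ciliary genes was called by limma, and 1 of these, an oligodendrocyte gene, had an unadjusted p under 0.05. Summed crystallins were 721 to 2130 (median 981) in ONC and 615 to 14900 (median 698) in CTRL, and the pigment epithelium sum was 458 to 5820 (median 1620) in ONC and 648 to 4930 (median 1680) in CTRL. Haemoglobin and other red cell transcripts summed to 217 to 6420 (median 725) in ONC and 389 to 7780 (median 4720) in CTRL. Of 5 red cell genes Hba-a2, 1 of a pair of near copies, fell (log2 change -1.46 ± 0.36 (SE), adjusted p = 0.0458), a call lost under 14 of 18 alternatives. The part of these tissues in the results above was not tested.

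The same injury in mice given RGFP966 gave a second, separate set of animals. For 1 of these retinas, CTRL female A, the title and condition read uncrushed and the description reads crushed, and the title was followed. In these mice 395 genes were called higher after crush (2.51%) and 157 lower (0.996%); without female A the numbers were 316 and 96. Of the called rises, 317 were shared, which is 63.0% of the vehicle rises and 80.3% of the RGFP966 rises. Of the called falls 88 were shared, 65.7% of the vehicle falls and 56.1% of the RGFP966 falls, and no gene was called in opposite directions. Among vehicle rises 99.8% were also positive in RGFP966 mice (47.8% of all genes were), with a median log2 change there of 0.83. Among vehicle falls 98.5% were also negative (52.2% of all genes were), with a median of -0.49. Medians of genes chosen by their calls in vehicle mice are drawn toward larger size in those mice.

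The log2 changes of named genes are given for both treatments. That of Ecel1 was 7.20 in RGFP966 and 7.33 in vehicle mice, and that of Csf1r was 1.52 in RGFP966 and 1.72 in vehicle mice. Pou4f1 had -2.69 in RGFP966 and -2.38 in vehicle mice, Nefl -1.99 in RGFP966 and -1.91 in vehicle mice, and Gfap 2.04 in RGFP966 and 2.68 in vehicle mice. Serpina3n, not called in vehicle mice, was called in RGFP966 mice (2.45, adjusted p = 4.35e-05, against 1.49 in vehicle mice). Bcl3 had 2.61 in RGFP966 and 4.13 in vehicle mice, and Nlrc5 1.61 in RGFP966 and 3.07 in vehicle mice. The tests of the difference gave -1.53 ± 0.75 for Bcl3, -1.47 ± 0.60 for Nlrc5, -0.64 ± 0.25 for Gfap and 0.95 ± 0.51 for Serpina3n (RGFP966 minus vehicle, SE). No gene passed the threshold for a difference between the treatments (limma, smallest adjusted p = 0.9997), which does not show that the responses were equal. At an unadjusted p under 0.05 were 297 of 15759 genes, a smaller share than the 0.05 that chance alone gives on average.

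Within vehicle mice, 2 females and 4 males were compared for the size of the crush effect. No gene passed the threshold (limma). At an unadjusted p under 0.05 were 383 of 15759 genes, again a smaller share than the 0.05 that chance alone gives on average. For Gfap the difference, female minus male, was 0.32 ± 0.34, for Ecel1 0.25 ± 1.0, for Csf1r 0.20 ± 0.20, for Pou4f1 -0.02 ± 0.56 and for Nefl -0.28 ± 0.29 (SE). With so few mice of each sex such differences have wide errors.

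**Figure D5:**
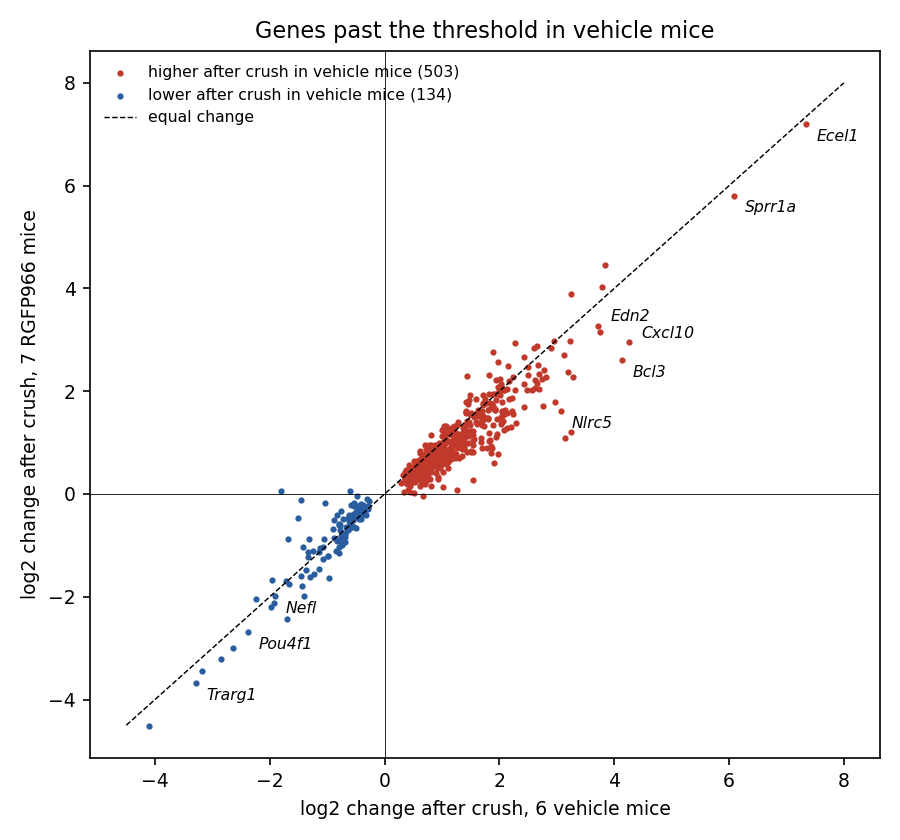
Each point is 1 of the 637 genes called in vehicle mice, with its log2 change after crush in 6 vehicle mice across and in 7 RGFP966 mice upward, and the dashed line marks equal change. All but 3 of the points have the same sign in both, and Bcl3 and Nlrc5 lie below the line.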

How the data were processed

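RNA of mouse retina was selected by poly(A) and sequenced in bulk, per the labels' protocols. Pseudoalignment with kallisto 0.46.1, the mm10 build and DESeq2 (version not given in the sources used here) are named in the submitters' processing notes. The authors deposited 1 table of normalized counts per gene, a signal scaled by DESeq2 size factors and not raw counts. Only 41.1 to 64.0% of low values per library were whole multiples of 1 read (within 0.05 of a read), so a count model was not run, and limma replaced it. Estimated depth was 16600000 to 24800000 reads per library, with the most frequent low value of each library taken as 1 read. Of 28 value columns, 2 that carry 1 shared name were not used. Of 35999 genes, 26 symbols turned into dates by a spreadsheet, with 0.115% of the total, were left out.

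Genes with a mean of at least 10 over the 12 vehicle libraries (15759) were tested on log2(value + 1) with limma 3.58.1 in R 4.3.3, with the mouse as a block, a trended empirical Bayes prior and Benjamini-Hochberg adjustment. Fold changes on this scale understate those of low genes. RGFP966 mice were fitted likewise, and differences of the crush effect between treatments and sexes were tested on the within-mouse ratios. The procedure was tested on simulated data. Tables were handled with Python 3.11.15 and pandas 2.3.3. The series' design takes the left and the right retina of each mouse, and eyes were paired by sex and letter in the titles. Deviations of the 2 eyes of a mouse from their group means correlated at 0.25 (female A), 0.13 (female C), 0.07 (male A), 0.338 (male B), 0.055 (male C) and 0.002 (male D). The highest correlation with the other eye of a different mouse was 0.187, 0.179, 0.235, 0.111, 0.332 and 0.212 in the same order, above the same-mouse value in 4 of 6 mice. The block therefore rests on the shared animal and not on these values.

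The members, gene lists and tests were chosen with earlier results of these data known. Named were the 15 largest called rises and falls (mean 50 or more, 6 mice moving alike, an ordinary gene symbol), up to 3 called members per list by p, members behind counts of up to 3, genes in runs of neighbours and a set of retinal injury markers. Other list members are examples chosen after their values were seen. A few genes are not reported here. Promoters were matched by symbol to RefSeq where 1 entry existed. Alternatives changed the pseudocount (0.5 or 5), the filter, the scaling, the prior, the weights, the block and the mice included.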

Additional observations from a re-analysis of the deposited data

Results flagged for a closer look

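In 18 of 264 groups of 6 retinas examined for the named genes, and in 2 of 14 groups of summed markers, 1 retina stood apart from the other 5 by Dixon's criterion, which chance meets in about 1 of 20 groups. Their part in the results above was not tested.

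CTRL male D accounted for several. Its summed rod genes reached 1540000 against 1100000 to 1170000 in the other CTRL retinas. It had 8.66 of Sprr1a and 3.31 of Cxcl10, both listed at 0 in the other 5 CTRL retinas, and 225 of Gbp7 against 96.1 to 126. Its Cp was the lowest of CTRL retinas, 1520 against 2050 to 2180, and ONC male D was likewise lowest for Cp, 2580 against 3130 to 3480.

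Female A gave the next group. CTRL female A had summed crystallins of 14900 against 615 to 821 in the other CTRL retinas, Fras1 of 686 against 112 to 183, Nupr1 of 131 against 67.4 to 84.0, Stat3 of 1410 against 1140 to 1220 and a low Bag3 of 65.3 against 91.0 to 104. ONC female A had Naa35 of 1710 against 1350 to 1440, Rbpms2 of 105 against 44.3 to 60.3 and mt-Nd3 of 28400 against 11800 to 15600 in the other ONC retinas.

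The remaining cases were spread over 4 retinas. ONC male B had Axl of 774 against 519 to 585 and Chac1 of 77.6 against 38.5 to 45.7. CTRL male C had Hrk of 64.0 against 10.4 to 19.6 and Tap1 of 80.9 against 50.1 to 58.6. CTRL male A had a low Aif1 of 4.07 against 15 to 21.9, and CTRL female C a low Mmp12 of 1.45 against 7.95 to 16.6.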

How the results depend on the processing

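In vehicle mice, leaving out 1 mouse gave 379 to 738 calls in all, 322 to 494 rises and 56 to 244 falls. The 134 falls became 261 with all 26 libraries and no block, 219 with all 26 libraries and the mouse as block, 254 with array weights, 85 without the filter on the mean, 66 with the same total per library and 66 without a trend in the prior. In RGFP966 mice, leaving out 1 mouse gave 346 (male D) to 528 calls in all, 264 to 368 rises and 82 (male D) to 161 falls; without female C there were 363 calls and 90 falls, and without female A 96 falls. Without the filter on the mean they gave 353 calls, 254 rises and 99 falls, and with the same total per library 102 falls. Other totals stayed within 1.5 times the values reported.

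Without the replicate block, the 12 vehicle libraries gave 614 calls, 488 rises and 126 falls, of which 535 were shared with the 637 calls of the paired fit. The pairing by mouse was kept because both eyes come from 1 animal. No named gene or count of calls reversed. Of the list medians given above, that of ganglion cell transcription factors, -0.09, was 0.02 with the same total per library, and that of subtype markers, 0.05, was -0.02 with quantile normalization. That of potassium and HCN channels, -0.02, was 0.1 with the same total per library. Of 132 named genes, leaving out male B ended the calls of 29, female A of 28, female C of 27, male C of 18, male A of 15 and male D of 10, omitting the trend of 25, omitting the filter of 16 and omitting the block of 11. The exact sign-flip permutation test, read at an unadjusted p under 0.05, ended the calls of 6. Any gene for which all 6 mice moved alike passes this cutoff. The largest rises and falls were chosen by that same rule, so they could not fail, and the test says nothing further about them. The tests of a difference between treatments and between sexes gave 0 calls in the alternatives run. Genes under a mean of 10 were not examined, and the deposited values do not give whole reads, so no counting interval was set.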
